A study of Mus musculus with 10 samples.

Results

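Ccnd1, Cdc20, Cdk1, Top2a and Mcm5 are 5 genes of the cell division cycle, followed here through the liver RNA of 5 groups of male mice. They were taken as every probe set that the platform annotation assigns to 1 of these genes alone, giving 7 of the 12488 probe sets on the Affymetrix MG_U74Av2 array and 5 of the 8251 genes with a probe set of their own. Where a gene had more than 1, the brightest over all 10 arrays was taken for the gene. Ccnd1 and Mcm5 had a second probe set, which served as a check.

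Scap-/-;MX1-Cre mice lack, in liver, SCAP, the escort protein that carries the SREBP transcription factors of lipid synthesis to their activation. They and their wild type controls were on Teklad chow, aged 10 to 12 weeks, and both had 4 intraperitoneal doses of polyinosinic-polycytidylic acid, with livers taken 14 days after the last. This agent induces interferon, which switches on the Mx1 promoter of the Cre transgene, and that promoter is not specific to hepatocytes. TgSREBP-1a and TgSREBP-2 mice express truncated human SREBPs that go straight to the nucleus, SREBP-1a in one line and SREBP-2 in the other. Both lines and their wild type littermates (called high-protein wild type below), aged 12 to 16 weeks, ate a diet high in protein and low in carbohydrate for 2 weeks, which raises expression of the transgenes. RNA of 5 livers per group was pooled and each pool was hybridised to 2 arrays, so every value below describes 1 pool measured on a pair of arrays. Errors and p-values therefore cover the spread between hybridisations and none between mice.

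A cell enters the cycle when cyclin D1, the product of Ccnd1, activates its partner kinases and releases the E2F factors that switch on replication genes. Mcm5 encodes a subunit of the MCM helicase that opens DNA at replication origins. Cdk1 is the kinase that drives entry into mitosis, Top2a encodes topoisomerase II alpha, which untangles replicated chromosomes, and Cdc20 activates the anaphase-promoting complex that ends mitosis. Hepatocytes of the adult liver are mostly quiescent, and these genes are known for their rise when liver regenerates. In liver, Ccnd1 also has roles in metabolism outside division.

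Genes of mitosis are known to share promoter elements, so the 250 bases before the RefSeq transcription start are shown for the 4 members with an entry, Cdc20, Cdk1, Top2a and Mcm5. The sequences are those of RefSeq on build GRCm38.p6, read 5′ to 3′ along the gene. They come from chr4:118437344-118437593 on the minus strand for Cdc20, chr10:69352913-69353162 on the minus strand for Cdk1, chr11:99024190-99024439 on the minus strand for Top2a and chr8:75109259-75109508 on the plus strand for Mcm5. Capitals mark matches, on either strand, to TTTGAA, the core of the cell cycle homology region, to CCAAT, or to the E2F sites TTTGGCGC and TTTCCCGC. The E-box CACGTG and the sterol regulatory element TCACCCCAC were searched as well.
Cdc20: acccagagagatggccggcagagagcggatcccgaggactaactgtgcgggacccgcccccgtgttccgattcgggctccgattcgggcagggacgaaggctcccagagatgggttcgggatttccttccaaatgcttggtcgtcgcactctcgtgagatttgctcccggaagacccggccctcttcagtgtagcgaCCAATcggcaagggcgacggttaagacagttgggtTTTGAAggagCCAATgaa
Cdk1: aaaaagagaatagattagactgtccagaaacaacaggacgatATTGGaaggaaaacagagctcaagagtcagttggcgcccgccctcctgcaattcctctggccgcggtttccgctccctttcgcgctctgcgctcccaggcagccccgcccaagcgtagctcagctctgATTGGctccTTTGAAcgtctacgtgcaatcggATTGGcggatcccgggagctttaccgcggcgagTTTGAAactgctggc
Top2a: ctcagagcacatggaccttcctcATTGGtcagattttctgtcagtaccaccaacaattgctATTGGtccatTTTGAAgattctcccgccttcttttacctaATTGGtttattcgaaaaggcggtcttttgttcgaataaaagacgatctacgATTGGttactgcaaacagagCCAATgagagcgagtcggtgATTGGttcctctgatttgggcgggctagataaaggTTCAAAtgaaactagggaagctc
Mcm5: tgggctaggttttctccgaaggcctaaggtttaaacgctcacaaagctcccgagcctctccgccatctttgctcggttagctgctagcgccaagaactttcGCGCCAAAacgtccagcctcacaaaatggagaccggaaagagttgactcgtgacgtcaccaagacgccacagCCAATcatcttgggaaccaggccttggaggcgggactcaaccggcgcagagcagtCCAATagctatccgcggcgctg

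TTTGAA was found in the windows of Cdc20, Cdk1 and Top2a and not in that of Mcm5. Its match nearest to the start lay at -18 to -13 in Cdc20, -15 to -10 in Cdk1 and, as the reverse complement, at -23 to -18 in Top2a, counted from the start. Cdk1 had a second match at -71 to -66 and Top2a at -179 to -174. Each of the 4 windows held CCAAT, with 2 matches in Cdc20, 3 in Cdk1, 6 in Top2a and 2 in Mcm5. TTTGGCGC was found only in Mcm5, as the reverse complement at -149 to -142, and TTTCCCGC, CACGTG and TCACCCCAC in none of these windows. Of 32851 RefSeq windows of the same length, 16.0% held TTTGAA, 33.8% CCAAT, 0.417% TTTGGCGC, 0.895% TTTCCCGC, 6.02% CACGTG and 0.496% TCACCCCAC. No matches of different motifs overlapped in the windows shown. A match describes letters and was not tested as a binding site.

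**Figure D1:**
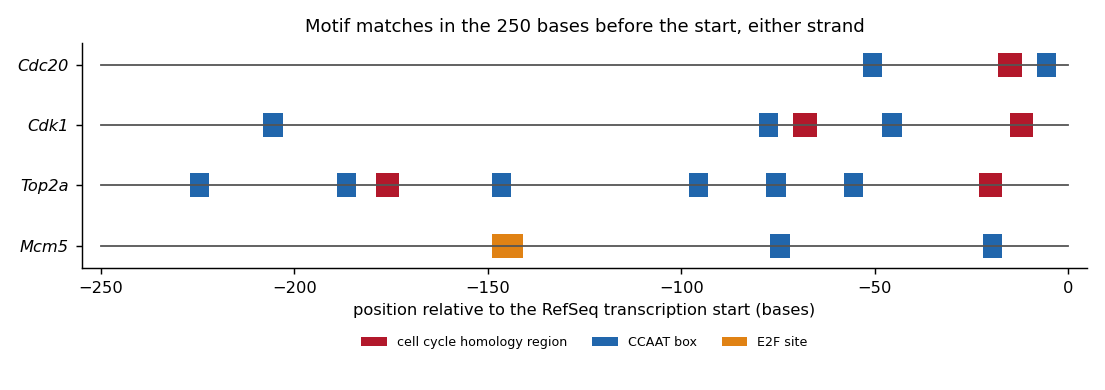
Matches to the searched motifs in the 250 bases before the RefSeq start of 4 genes, with the position in bases from the start on the horizontal axis. TTTGAA (red) lies within 25 bases of the start in Cdc20, Cdk1 and Top2a, CCAAT (blue) occurs in all 4 windows and the E2F site (orange) in Mcm5 alone.

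The arrays themselves were alike in level. Medians lay between 6.37 and 6.4 log2 on the 10 arrays and duplicates correlated at 0.9921 to 0.9978 over genes. The duplicates of Scap knockout differed by 1.5-fold or more at 6 genes and those of wild type on chow at 0, while TgSREBP-1a had 151 such genes, TgSREBP-2 had 55 and high-protein wild type had 101. Hepatocyte transcripts were bright: 6 of 8 measured hepatocyte markers were among the top 10% of genes, and albumin stood at 13.48 to 13.85. The RNA also held signal of exocrine pancreas markers, which differed widely between pools. The linear signals of 7 such markers summed to 1307 to 1350 per array in TgSREBP-1a and to 21692 to 22090 in TgSREBP-2. The transcript of Scap was not analysed here.

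In the Scap knockout pool, 3 of the 5 genes rose: Cdc20, Cdk1 and, on 1 of its 2 probe sets, Ccnd1. A gene is called here, and said to rise or fall, at an adjusted p under 0.05 in limma with a difference of at least 1.5-fold. By that rule 1.66% of 8251 genes were called in this comparison, with 0.739% of the 8251 called higher. In TgSREBP-1a only Ccnd1 rose, again on that probe set, where 7.37% of genes were called, and in TgSREBP-2 limma called 0 of the 5, where 2.57% of genes were called and 1 member, Ccnd1, had an unadjusted p under 0.05. Top2a and Mcm5 were called in none of these 3 comparisons. In RNA of whole liver, more dividing cells and more transcript per cell cannot be told apart. The 5 genes were chosen with earlier results of these arrays known, so these counts describe them and do not test them as a set.

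**Figure D2:**
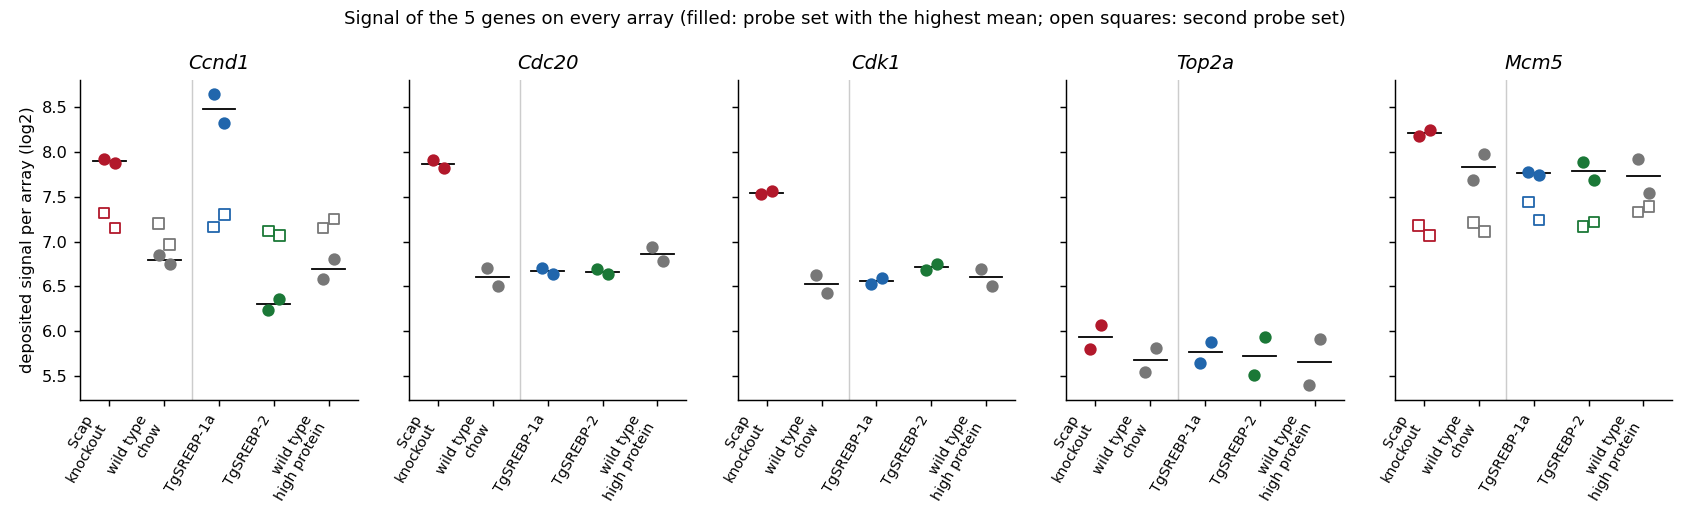
Deposited log2 signal of the 5 genes on each of the 10 arrays, by group, with a bar at the mean of the 2 arrays of the main probe set. Cdc20 and Cdk1 stand above every other pool on both Scap knockout arrays, Ccnd1 is highest in TgSREBP-1a and next in Scap knockout on its main probe set but level on its second one (open squares), and Top2a and Mcm5 vary little.

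Ccnd1 gave 7.92 and 7.87 log2 on the Scap knockout arrays, against 6.85 and 6.75 on those of wild type on chow. In the other set it stood at 8.64 and 8.32 in TgSREBP-1a and 6.24 and 6.36 in TgSREBP-2, against 6.58 and 6.81 in high-protein wild type. No array of Scap knockout or TgSREBP-1a overlapped its wild type, and TgSREBP-2 lay below its own. Against wild type the signal rose 2.14-fold in Scap knockout (log2 difference 1.09 ± 0.12, moderated SE, n = 2 arrays each, limma adjusted p = 0.000447) and 3.45-fold in TgSREBP-1a (1.79 ± 0.12, limma adjusted p = 2.89e-06). TgSREBP-2 differed by -0.40 ± 0.12, with a 95% interval of -0.66 to -0.13 (limma adjusted p = 0.0966). Between the transgenic pools the signal was 4.54-fold higher in TgSREBP-1a than in TgSREBP-2 (2.18 ± 0.12, limma adjusted p = 8.53e-07), a comparison in which 5.19% of genes were called and Ccnd1 was the only member called.

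These differences of Ccnd1 rest on 1 of its 2 probe sets. The set used, 94232_at, averaged 7.23 over the arrays, just above the 7.17 of 94231_at. On 94231_at the signal was 7.32 and 7.15 in Scap knockout, against 7.20 and 6.97 in wild type on chow. It was 7.16 and 7.30 in TgSREBP-1a and 7.12 and 7.07 in TgSREBP-2, against 7.15 and 7.25 in high-protein wild type. On this probe set Scap knockout and TgSREBP-1a overlapped their wild type, and TgSREBP-2 lay just below its own. Its log2 differences were 0.15 ± 0.10 for Scap knockout (95% interval -0.07 to 0.38, limma adjusted p = 0.798), 0.03 ± 0.10 for TgSREBP-1a (-0.20 to 0.26, limma adjusted p = 0.88) and -0.10 ± 0.10 for TgSREBP-2 (-0.33 to 0.12, limma adjusted p = 0.659). Which part of the transcript each set probes was not analysed here.

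The order of the 5 pools for Ccnd1 ran from TgSREBP-1a (mean 8.48 ± 0.23, SD of 2 arrays) through Scap knockout (7.89 ± 0.04), wild type on chow (6.80 ± 0.07) and high-protein wild type (6.70 ± 0.17) to TgSREBP-2 (6.30 ± 0.09). The 2 highest pools differed from each other by 0.59 (limma adjusted p = 0.00559 in the same fit). They also differ in diet, age and injections, which cannot be told apart from genotype here. The 2 wild type pools, next to each other in this order, did not pass (adjusted p = 0.562 in limma), nor did high-protein wild type and TgSREBP-2.

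Cdc20 gave 7.91 and 7.82 log2 in Scap knockout, against 6.71 and 6.50 in wild type on chow. In the other set it was 6.71 and 6.64 in TgSREBP-1a and 6.69 and 6.64 in TgSREBP-2, against 6.94 and 6.78 in high-protein wild type. Both knockout arrays stood apart from the other 8, and both transgenic pools lay just below their wild type without overlap. The rise in Scap knockout was 2.39-fold, or 1.26 ± 0.10 on the log2 scale (limma adjusted p = 3.24e-05). TgSREBP-1a differed by -0.19 ± 0.10 (95% interval -0.40 to 0.03, limma adjusted p = 0.23) and TgSREBP-2 by -0.20 ± 0.10 (-0.41 to 0.02, limma adjusted p = 0.331).

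Cdk1 was likewise highest in Scap knockout. Its signal was 7.53 and 7.56 in Scap knockout, against 6.63 and 6.43 in wild type on chow. It was 6.53 and 6.59 in TgSREBP-1a and 6.68 and 6.75 in TgSREBP-2, against 6.69 and 6.51 in high-protein wild type. The knockout arrays were again above all others, and both transgenic pools overlapped their wild type. Scap knockout was 2.03-fold higher than its wild type (1.02 ± 0.09, limma adjusted p = 0.000136). The differences were -0.05 ± 0.09 in TgSREBP-1a (95% interval -0.26 to 0.16) and 0.11 ± 0.09 in TgSREBP-2 (-0.10 to 0.32), with limma adjusted p = 0.788 and 0.596.

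Outside the knockout, the levels of Cdc20 and Cdk1 in the 4 other pools could not be put in order. For Cdc20, high-protein wild type averaged 6.86 ± 0.11, TgSREBP-1a 6.68 ± 0.05, TgSREBP-2 6.66 ± 0.03 and wild type on chow 6.61 ± 0.15 (SD, n = 2 arrays), and neighbours in that order had limma adjusted p = 0.23, 0.972 and 0.763. For Cdk1 they were 6.72 ± 0.05 in TgSREBP-2, 6.60 ± 0.13 in high-protein wild type, 6.56 ± 0.04 in TgSREBP-1a and 6.53 ± 0.14 in wild type on chow, with limma adjusted p = 0.596, 0.788 and 0.883 between neighbours. The step up to Scap knockout from the next pool passed for both genes (limma adjusted p = 8.37e-05 for Cdc20 and 0.000219 for Cdk1) and measured 0.83 for Cdk1. For both, that next pool belongs to the high-protein set, which also differs from the knockout in diet, age and injections.

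Mcm5 gave 8.17 and 8.24 log2 in Scap knockout, against 7.69 and 7.98 in wild type on chow. It stood at 7.78 and 7.74 in TgSREBP-1a and 7.89 and 7.68 in TgSREBP-2, against 7.92 and 7.54 in high-protein wild type. The knockout arrays lay above all others, but by less than for Cdc20 and Cdk1, and the high-protein pools overlapped. The knockout difference of 0.37 ± 0.14, or 1.29-fold, had a 95% interval of 0.07 to 0.68 and did not pass (limma adjusted p = 0.323). On the second probe set, 162102_r_at, it was -0.03 ± 0.09 (-0.23 to 0.17, limma adjusted p = 0.993). For TgSREBP-1a the difference was 0.03 ± 0.14 and for TgSREBP-2 0.06 ± 0.14 (limma adjusted p = 0.914 and 0.88).

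Top2a was the dimmest of the 5, with a mean of 5.75 over the arrays, above 36.6% of probe sets. It gave 5.80 and 6.07 in Scap knockout, against 5.55 and 5.82 in wild type on chow. In the other set the values were 5.65 and 5.88 in TgSREBP-1a and 5.51 and 5.94 in TgSREBP-2, against 5.40 and 5.91 in high-protein wild type. All pools overlapped their wild type, and the array numbered 2 was the higher one in all 5 pools. The knockout difference was 0.25 ± 0.19 with a 95% interval of -0.18 to 0.68 (limma adjusted p = 0.875). A rise of 1.5-fold lies inside that interval, and outside the interval of the fit with the array number as a block, 0.07 to 0.43 (0.25 ± 0.08, limma adjusted p = 0.112). The transgenic differences were 0.11 ± 0.19 for TgSREBP-1a and 0.07 ± 0.19 for TgSREBP-2 (limma adjusted p = 0.748 and 0.89).

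For Mcm5 and Top2a no neighbouring pools could be put in order. Mcm5 averaged 8.21 ± 0.05 in Scap knockout, 7.83 ± 0.21 in wild type on chow, 7.78 ± 0.14 in TgSREBP-2, 7.76 ± 0.03 in TgSREBP-1a and 7.73 ± 0.27 in high-protein wild type (SD, n = 2 arrays), and limma adjusted p between neighbours ran from 0.323 to 0.958. Over wider gaps Mcm5 in Scap knockout passed the adjusted p, though not 1.5-fold, against TgSREBP-1a (0.45 ± 0.14, limma adjusted p = 0.0423) and high-protein wild type (0.48 ± 0.14, limma adjusted p = 0.0323), on its main probe set. Those pools also differ from the knockout pool in diet, age and injections. Top2a averaged 5.94 ± 0.19 in Scap knockout, 5.77 ± 0.16 in TgSREBP-1a, 5.73 ± 0.30 in TgSREBP-2, 5.69 ± 0.19 in wild type on chow and 5.65 ± 0.36 in high-protein wild type, with limma adjusted p of 0.61 to 0.945 between neighbours.

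**Figure D3:**
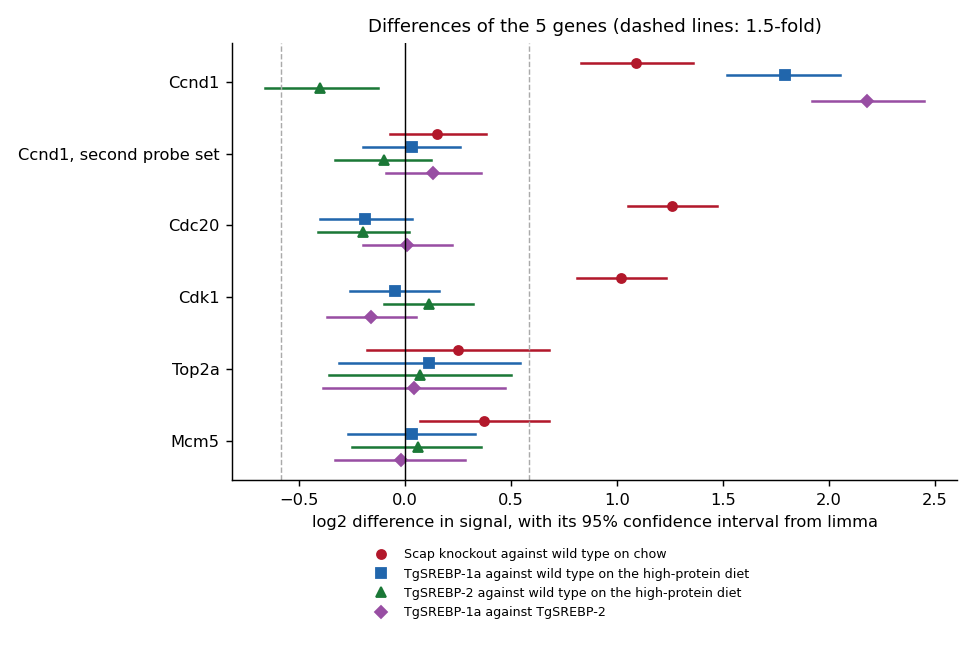
Log2 difference in signal of each gene with its 95% interval from the limma fit, for 3 comparisons with wild type and for TgSREBP-1a against TgSREBP-2; dashed lines mark 1.5-fold. Cdc20 and Cdk1 are displaced in Scap knockout only among these, Ccnd1 in Scap knockout, TgSREBP-1a and between the transgenic pools but not on its second probe set, and the intervals of Top2a include 0 throughout.

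Whether the knockout difference was larger than the transgenic ones was tested directly in the same fit, as the difference between both contrasts. For Cdc20 the knockout difference exceeded that of TgSREBP-1a by 1.44 ± 0.14 (limma adjusted p = 6.01e-05) and that of TgSREBP-2 by 1.46 ± 0.14 (limma adjusted p = 9.24e-05). For Cdk1 the excess was 1.07 ± 0.13 over TgSREBP-1a and 0.91 ± 0.13 over TgSREBP-2 (limma adjusted p = 0.000441 and 0.00245). The Ccnd1 difference in Scap knockout was 1.49 ± 0.17 above that in TgSREBP-2 (limma adjusted p = 0.000423) and 0.69 below that in TgSREBP-1a (-0.69 ± 0.17, limma adjusted p = 0.0264). The last of these lost its call when either Scap knockout array, either array of wild type on chow, replicate 1 of TgSREBP-1a or replicate 1 of high-protein wild type was left out (limma adjusted p = 0.0698 to 0.116, with differences of -0.74 to -0.53). Both Ccnd1 tests rest on 94232_at. On 94231_at they gave 0.26 ± 0.14 against TgSREBP-2 and 0.12 ± 0.14 against TgSREBP-1a (limma adjusted p = 0.448 and 0.678). Top2a and Mcm5 did not pass in either test. Calls were made for 7.42% of all genes in the test against TgSREBP-1a and for 3.79% in that against TgSREBP-2, with 3 of the 5 members called in each. The knockout and transgenic sets also differ in diet, age and injections, which cannot be told apart from genotype here.

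In wild type liver the 5 genes were near level between the high-protein and chow pools, which differ in diet, age and injections together. Limma called 0 of 5 for the high-protein set against chow, where 5.62% of genes were called and 1 member had an unadjusted p under 0.05. That was Cdc20, at 0.25 ± 0.10 (limma adjusted p = 0.0813).

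The wider cell cycle was followed in 5 lists by role, 114 genes in all, of which 98 were measured. In Scap knockout 7 of the 98 rose and none fell, against 0.739% of all genes called higher and 0.921% called lower. Their median log2 difference was 0.11, against 0.00 over all genes, and 68 of 98 lay above 0. Without the 5 members, 4 of 93 rose and the median was 0.10. At an adjusted p under 0.05 with no fold threshold, 13 of the 98 were higher and none lower, where 1.41% of all genes were higher and 1.43% lower by that rule.

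Mitosis genes held 2 of the calls in the knockout pool, of 28 measured, with 24 of 28 above 0 and a median of 0.16. The second after Cdc20 was Stmn1, which encodes the microtubule-destabilising protein stathmin. It gave 7.62 and 7.60 log2 in Scap knockout against 6.53 and 6.41 in wild type on chow, a 2.20-fold rise (1.14 ± 0.15, limma adjusted p = 0.0016). Its dimmer probe set, 97910_at, did not show it (-0.07 ± 0.11, limma adjusted p = 0.993). Smaller knockout differences that passed the adjusted p but not 1.5-fold were those of Prc1, a spindle midzone protein (0.43 ± 0.07), Nek2, a centrosome kinase (0.43 ± 0.10), Cks2, a subunit bound to cyclin-dependent kinases (0.48 ± 0.10), the checkpoint protein Mad2l1 (0.37 ± 0.08) and survivin, Birc5 (0.37 ± 0.08). These were picked from the list after their values were seen.

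Of 12 cyclins and kinases measured, Ccnd1 and Cdk1 rose in Scap knockout, with a median of 0.13. Ccnb2, a mitotic cyclin, passed on adjusted p alone at 0.48 ± 0.10 (limma adjusted p = 0.0284), and Ccna2, the cyclin of S phase and G2, stood at 0.37 ± 0.10 (limma adjusted p = 0.108). Among 11 genes of chromosome structure the condensin subunits Smc2 and Smc4 rose, and the median was 0.24. Smc2 gave 4.75 and 4.76 in Scap knockout against 4.15 and 4.04 in wild type on chow (0.66 ± 0.10, limma adjusted p = 0.00359), and Smc4 gave 5.85 and 5.89 against 5.07 and 5.34 (0.67 ± 0.11, limma adjusted p = 0.00627). Both are dim, with 1 probe set each, and with 32 added to every linear signal the differences were 0.26 for Smc2 and 0.39 for Smc4, below 1.5-fold. Smc4 lost its call without either knockout array or without replicate 1 of wild type on chow (0.53 to 0.69, limma adjusted p up to 0.0895), and Smc2 without replicate 2 of wild type on chow (0.60, limma adjusted p = 0.0652).

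Kinase inhibitors and the RB-E2F factors held 1 call of 16. Cdkn1a, which encodes the inhibitor p21, gave 9.36 and 9.45 in Scap knockout against 8.75 and 8.87 in wild type on chow. The groups did not overlap, and the rise of 0.59 ± 0.08 (1.51-fold, limma adjusted p = 0.00217) was just past the fold threshold. It fell short of 1.5-fold on its dimmer probe set (0.56 ± 0.09), without Scap knockout replicate 2 (0.54) and without replicate 1 of wild type on chow (0.53). Replication genes held no call in limma, 0 of 31, with 4 at an unadjusted p under 0.05 and a median of 0.04. Those were Rrm2, a subunit of ribonucleotide reductase (0.43 ± 0.11), the flap endonuclease Fen1 (0.38 ± 0.10), Mcm5 itself and Mcm7 (0.22 ± 0.08).

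**Figure D4:**
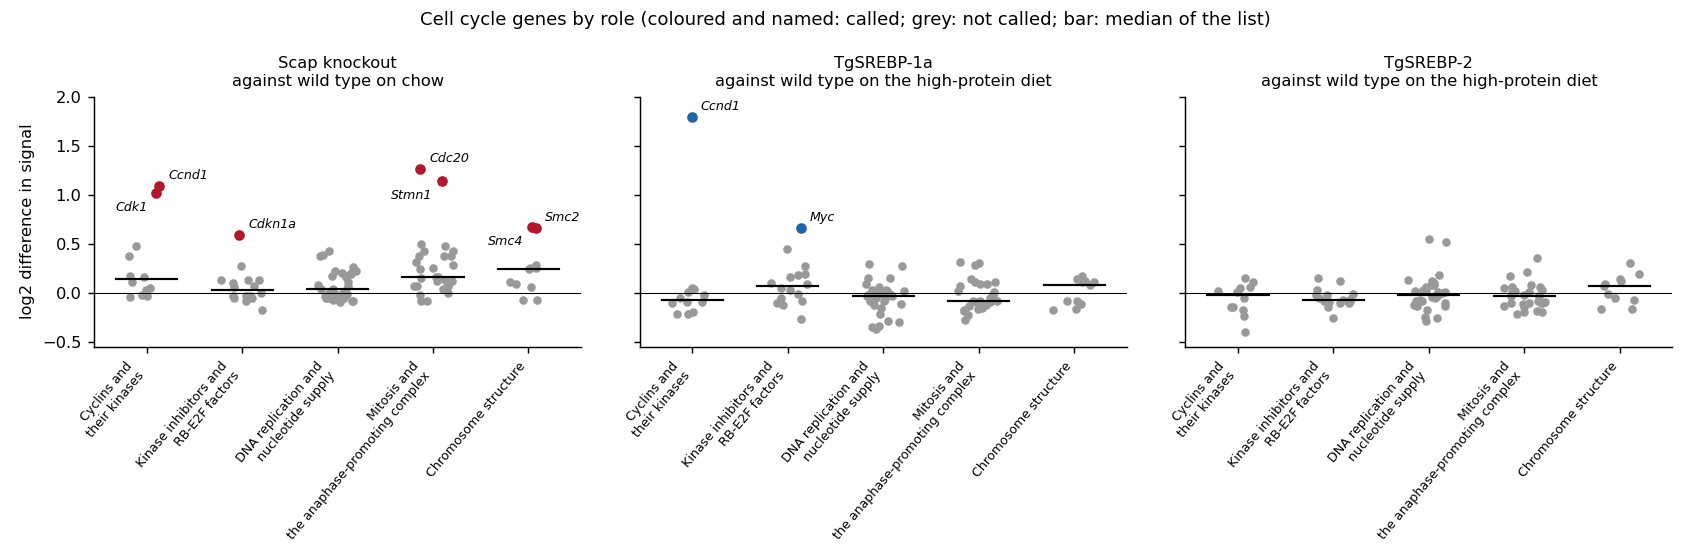
Log2 difference in signal of the 98 measured cell cycle genes, grouped by role, in the 3 comparisons with wild type, with the median of each list as a bar. Called genes are coloured and named: 7 in Scap knockout, Ccnd1 and Myc in TgSREBP-1a and none in TgSREBP-2.

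Fewer of the listed genes were called in the transgenic pools. In TgSREBP-1a, 2 of the 98 rose and none fell, where 4.78% of all genes were called higher and 2.59% lower. The median was -0.03, the same as over all genes. Beside Ccnd1, the call was Myc, the growth-promoting transcription factor, at 4.65 and 4.39 in TgSREBP-1a against 3.94 and 3.79 in wild type (0.66 ± 0.12, limma adjusted p = 0.00353). Its difference was under 1.5-fold when replicate 1 of TgSREBP-1a (0.53) or replicate 2 of wild type (0.58) was left out. Its signal is dim, and with 32 added to every linear signal the difference was 0.24, below 1.5-fold. On adjusted p alone 5 were higher and 3 lower, where 9.82% of all genes were higher and 6.74% lower by that rule. The 5 were Ccnd1, Myc, Mad2l1 (0.31 ± 0.08) and the kinase inhibitors Cdkn2b (0.45 ± 0.13) and Cdkn1a (0.27 ± 0.08). The 3 were Mcm7 (-0.29 ± 0.08), the clamp loader subunit Rfc2 (-0.34 ± 0.10) and the primase subunit Prim2 (-0.35 ± 0.10). On the second probe set of Cdkn1a the TgSREBP-1a difference was 0.71 ± 0.09 (limma adjusted p = 0.00024) and the TgSREBP-2 difference -0.59 ± 0.09 (limma adjusted p = 0.00276), while the main set gave 0.27 ± 0.08 and -0.02 ± 0.08.

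In TgSREBP-2 limma called 0 of the 98, with 8 at an unadjusted p under 0.05, where 2.18% of all genes were called higher and 0.388% lower. The 2 that passed on adjusted p alone were higher, as were 4.04% of all genes by that rule: Rpa1, of the single-strand binding complex (0.55 ± 0.09), and the replication clamp Pcna (0.52 ± 0.11). Directly between the lines, Ccnd1 and Myc were higher in TgSREBP-1a, 2 of 98, and none was lower, where 2.24% and 2.95% of all genes were called. Myc differed there by 0.71 ± 0.12 (limma adjusted p = 0.00278), or by 0.58 without replicate 1 of TgSREBP-1a and 0.26 with 32 added, both below 1.5-fold. Both transgenic comparisons share the same wild type arrays.

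The test of the knockout difference against the transgenic ones called 8 of the 98 against TgSREBP-1a (6 higher and 2 lower, with 7.42% of all genes called) and 8 against TgSREBP-2 (7 higher and 1 lower, with 3.79% called). Against TgSREBP-1a the knockout difference was larger for Stmn1 (by 1.13 ± 0.21, limma adjusted p = 0.00618), Cks2 (0.71 ± 0.14, 0.00728), Ccnb2 (0.70 ± 0.14, 0.0091) and the mitotic kinase Plk1 (0.65 ± 0.16, 0.0309), and lower for Myc (-0.68 ± 0.17, 0.0273). Stmn1, Cks2 and Ccnb2 kept that call with each of the 8 arrays left out in turn, while Plk1 lost it in 6 and Myc in 5 of the 8 (limma adjusted p up to 0.13 and 0.121). Against TgSREBP-2 it was larger for Stmn1 (1.07 ± 0.21), Smc4 (0.72 ± 0.15), Ccnb2 (0.63 ± 0.14) and Cdkn1a (0.61 ± 0.11), and lower for Rpa1 (-0.65 ± 0.12), with limma adjusted p of 0.0117 to 0.0304. Each of these 5 lost the call in 3 to 6 of the 8 leave-outs, every one of them when Scap knockout replicate 2 or replicate 1 of wild type on chow was left out (limma adjusted p of 0.056 to 0.135). For Plk1 the other probe sets gave 0.29 ± 0.15 (161292_f_at, limma adjusted p = 0.31) and 0.84 ± 0.18 (93099_f_at, limma adjusted p = 0.0131) against TgSREBP-1a. The dimmer probe set of Stmn1 gave 0.11 ± 0.16 against TgSREBP-1a and -0.14 ± 0.16 against TgSREBP-2.

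Between the wild type pools, 2 of 98 were lower in high-protein wild type and none was higher, where 4.34% and 1.28% of all genes were called. Diet, age and injections differ together between these pools and cannot be told apart. Bub3, a spindle checkpoint protein, differed by -0.71 ± 0.12 and Cks2 by -0.61 ± 0.10 (limma adjusted p = 0.00302 and 0.00209). The dimmer probe set of Bub3 stood at 0.11 ± 0.09. Both genes were under 1.5-fold without replicate 2 of high-protein wild type (Bub3 -0.53, Cks2 -0.58), and Cks2 also without replicate 2 of wild type on chow (-0.52).

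Markers of other cells were set beside these genes. In Scap knockout the signals of 12 macrophage markers summed to 4450 to 4491 per array, against 4471 to 4681 in wild type on chow, and none was called. At an unadjusted p under 0.05 in limma were 3 of them: Marco (-0.63 ± 0.18) and Cd5l (-0.47 ± 0.16), lower, and Cd14 (0.40 ± 0.12), higher. Limma called 0 of 10 neutrophil, 8 endothelial, 10 stellate cell and fibroblast, 4 cholangiocyte, 6 red cell precursor and 8 hepatocyte markers, and the numbers at an unadjusted p under 0.05 were 0, 0, 4, 0, 2 and 2 in that order. With 1.66% of all genes called in this comparison, most lists this short would hold no call. Stellate cell markers summed to 2853 to 2915 against 2474 to 2565 in wild type on chow, and red cell precursor markers to 3705 to 3740 against 3274 to 3278. Of 10 lymphocyte markers Ighm fell, and the sum was 1387 to 1415 against 1615 to 1643. All 7 exocrine pancreas markers fell, with a sum of 1803 to 1874 against 7999 to 8200. The sums for hepatocyte markers were 42985 to 44771 against 44930 to 45485. The part of these differences in the rise of Cdc20, Cdk1 and Ccnd1 was not tested.

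In TgSREBP-1a, where Ccnd1 was highest, 5 of 12 macrophage markers rose, with 4.78% of all genes called higher and 2.59% lower. Their sum was 5000 to 5359 against 3279 to 3338 in high-protein wild type. Of 8 endothelial markers 2 rose (1701 to 1754 against 1406 to 1409), and of 10 lymphocyte markers Ighm rose (1878 to 1930 against 1469 to 1590). All 7 exocrine pancreas markers fell (1307 to 1350 against 16164 to 16247). Of 6 red cell precursor markers Hba-a1 rose and Alas2 fell (4390 to 4569 against 3021 to 3284). Hba-a1 made up most of that sum. The median log2 difference of the 6 was -0.24, with 1 of 6 above 0. Limma called 0 of 10 stellate cell markers, with 6 at an unadjusted p under 0.05 and a sum of 3127 to 3247 against 2724 to 2767. These went both ways. On adjusted p alone 3 were higher (Col1a1, Col3a1 and Dcn) and 2 lower (Des and Acta2), where 9.82% and 6.74% of all genes were. Of 8 hepatocyte markers Tat rose and Ttr fell (45110 to 48181 against 44986 to 45996). Their part in the Ccnd1 difference was not tested. In TgSREBP-2 macrophage markers summed to 4090 to 4434 and 3 of 12 rose, where 2.18% of all genes were called higher. Of 7 exocrine pancreas markers 2 rose (21692 to 22090 against 16164 to 16247 in high-protein wild type). Of 6 red cell precursor markers Hba-a1 rose (4806 to 4861 against 3021 to 3284), again most of the sum. The median of the 6 was -0.03, with 2 of 6 above 0. High-protein wild type, the reference of both lines, had the lowest macrophage sum of the 5 pools, and wild type on chow gave 4471 to 4681. Between these wild type pools 4 of 12 macrophage markers were called lower in high-protein wild type, where 4.34% of all genes were called lower.

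Genes most like the members, on their brightest probe sets, were sought by Pearson correlation over the 10 arrays among genes whose pool means spanned at least 1 on the log2 scale, 498 beside the member itself. The 10 arrays are 5 pools measured on pairs of arrays, so these figures describe the pools and carry no test. Top2a and Mcm5 spanned 0.28 and 0.48 and were not ranked. Cdc20 was most like Cdk1 (r = 0.97), Stmn1 (0.96), the immediate early gene Egr1 (0.93) and the keratin Krt4 (0.93). Cdk1 was most like Cdc20 (0.97), Stmn1 (0.96), Smc2 (0.91) and Alas1, which starts haem synthesis (0.88). All of these had their highest mean in Scap knockout: Stmn1 7.61 against 6.47 in wild type on chow, Egr1 8.32 against 7.15, Krt4 10.49 against 7.92 and Alas1 11.32 against 10.48. Cdc20 and Cdk1 spanned at least 1 only through that pool, so this follows from how the neighbours were picked.

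Ccnd1 had other neighbours, namely the annexin Anxa2 (r = 0.97), the small proline-rich protein Sprr1a (0.96), the glutathione transferase Gstm3 (0.94) and the macrophage metalloelastase Mmp12 (0.94). Anxa2 averaged 9.29 in TgSREBP-1a and 8.04 in TgSREBP-2, against 8.04 in high-protein wild type, and 9.15 in Scap knockout against 8.24 in wild type on chow. Sprr1a averaged 9.19 in TgSREBP-1a and 6.59 in TgSREBP-2, against 6.96 in their wild type, and 7.99 in Scap knockout against 6.67 in its own. These genes were picked for likeness to Ccnd1 on 94232_at, so their order over the pools follows from the choice. On 94231_at Ccnd1 spanned 0.15 and would not have been ranked. Among the members themselves, Cdc20 and Cdk1 correlated with Mcm5 at 0.77 and 0.78, while Ccnd1 correlated with Cdc20 at 0.37 and with Cdk1 at 0.30. Top2a correlated with Mcm5 at 0.14, with Ccnd1 and Cdc20 at 0.31 each and with Cdk1 at 0.38.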

How the data were processed

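Liver RNA of 5 pools was measured on 10 arrays, 2 per pool. The authors deposited log2 signals for 12488 probe sets, made with RMA per the submitters' processing notes, whose version is not given in the sources used here. The series' design text names Microarray Suite 5.0 instead, which gives linear signals, and the values match a log2 scale. Of these probe sets 10833 had 1 gene symbol, 10817 of them updated by gene ID through RefSeq, 396 had several, 1193 none and 66 were controls. The probe set with the highest mean stood for each of 8251 genes. A group-means model without a block was fitted to all 10 arrays (limma 3.58.1, lmFit and eBayes, R 4.3.3), leaving 5 residual degrees of freedom, with Benjamini-Hochberg adjustment over 8251 genes. The number of arrays limits the precision, and detection calls were not used here. The code was tested on simulated data.

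Same-numbered arrays deviated together in the high-protein set (r = 0.46, 0.61 and 0.60 between pools) and in the chow set (0.30). Between sets they deviated in opposite directions (-0.12 to -0.48). The labels do not say what the number marks. The number was fitted as a block within each set as an alternative. The others were other probe sets, scalings, filters, priors, thresholds and leaving out arrays. The members and lists were chosen with earlier results of these data known. Named genes are the members, up to 4 called genes per list and comparison, and the 4 most alike genes; others were picked after their values were seen.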

Additional observations from a re-analysis of the deposited data

How the results depend on the processing

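Cdc20 and Cdk1 kept their Scap knockout calls under all 14 alternatives run for each, at 1.03 to 1.36 and 0.82 to 1.12 (limma adjusted p at most 0.000983 and 0.00366). Neither gene has a second probe set as a check, so averaging probe sets left their own signals as they were. Dropping the fold threshold could only loosen the rule. Ccnd1 kept its calls in Scap knockout, TgSREBP-1a and between the transgenic pools under 14 of 15, the exception being its other probe set, at 0.15, 0.03 and 0.13. On that set its tests of the knockout against the transgenic differences gave 0.12 (turned in sign) and 0.26, and with the mean of both sets the first gave -0.28 (adjusted p = 0.225). The replicate block changed no call of a member: the Scap knockout differences stayed at 1.26 for Cdc20, 1.02 for Cdk1 and 1.09 for Ccnd1. With the block, Mcm5 in Scap knockout (limma adjusted p = 0.0336), Ccnd1 in TgSREBP-2 (0.0368) and Cdc20 between the wild type pools (0.0157) passed the adjusted p but stayed under 1.5-fold.

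With the threshold at 2-fold, the test of Ccnd1 against TgSREBP-1a (-0.69) and of Cdk1 against TgSREBP-2 (0.91) lost their calls. Genes called over the whole table then numbered 53 in Scap knockout, 240 in TgSREBP-1a, 72 in TgSREBP-2, 185 between the transgenic pools, 110 between the wild type pools, and 278 and 153 in the tests of the knockout against the TgSREBP-1a and TgSREBP-2 differences. With no fold threshold the first 5 were 234, 1366, 417, 911 and 1869. Cell cycle list genes called in Scap knockout, both transgenic pools, between them and between the wild type pools were 13, 8 (TgSREBP-1a), 2 (TgSREBP-2), 6 and 15 with no fold threshold. At 2-fold there were 4 in Scap knockout, 1 in TgSREBP-1a, 1 between the transgenic and 0 between the wild type pools. With 32 added there were 4, 1, 1 and 1 in the same order. In the tests of the knockout against the TgSREBP-1a and TgSREBP-2 differences, 5 and 4 were called with 32 added and 3 and 3 at 2-fold, and 13 in the first with no fold threshold. Among genes with a mean of at least 6 there was 1 in TgSREBP-1a and 1 between the transgenic pools, and 1 remained between the wild type pools with probe sets averaged or arrays centred. Leaving out 1 array gave 1 to 4 in TgSREBP-1a, 0 to 2 in TgSREBP-2, 1 to 3 between the transgenic and 1 to 4 between the wild type pools, and 5 to 9 and 3 to 10 in those tests. It also moved the test of Ccnd1 against TgSREBP-1a between -0.85 and -0.53.

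Some differences that did not pass changed sign. On the other probe set Mcm5 stood at -0.03 in Scap knockout, -0.01 in TgSREBP-1a, -0.16 in TgSREBP-2, 0.15 between the transgenic and 0.20 between the wild type pools and -0.02 in the test against TgSREBP-1a, and Ccnd1 at 0.12 between the wild type pools. With probe sets averaged, Mcm5 stood at -0.05 in TgSREBP-2, 0.06 between the transgenic and 0.05 between the wild type pools, where Ccnd1 stood at 0.01. Leaving out 1 array moved Top2a between -0.14 and 0.37 (TgSREBP-1a), -0.19 and 0.33 for TgSREBP-2, -0.17 and 0.26 between the transgenic pools, -0.29 and 0.23 between the wild type pools, and -0.12 and 0.39 or -0.08 and 0.44 in the tests against the TgSREBP-1a and TgSREBP-2 differences. Mcm5 moved between -0.16 and 0.22, -0.13 and 0.24, -0.13 and 0.08, and -0.29 and 0.08 in the first 4 of these. Cdk1 moved between -0.14 and 0.04 in TgSREBP-1a and -0.02 and 0.17 between the wild type pools, Cdc20 between -0.03 and 0.05 between the transgenic pools, and Ccnd1 between -0.22 and 0.01 between the wild type pools. The cause of these changes was not tested. Signal over background was not analysed here, which limits what the dim Top2a, Smc2, Smc4 and Myc can show.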
